A study of Mus musculus with 24 samples.

Results

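The genes described here are *Mstn*, which encodes myostatin, 7 genes of the pathway it signals through (*Fst*, *Fstl3*, *Acvr2a*, *Acvr2b*, *Smad2*, *Smad3* and *Smad7*) and *Mss51*. They were found on the array by gene name, which gave 9 genes with 11 of the 55681 probes. *Mss51* is listed on the array under its older name *Zmynd17*. Of the 9 genes, 7 passed the filter on dim probes, among 9140 genes that did. The 9 genes were selected on their Hypox to Norm differences on these arrays, which were known when the list was made, so those differences are described with their errors and carry no test.

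The arrays measured RNA of whole *M. gastrocnemius*, the calf muscle, from 24 male C57BL/6JOlaHsd mice. All mice arrived at 10 weeks of age, ate a low-fat diet (10% of energy from fat) for 3 weeks and then a high-fat diet (40% of energy) for 6 weeks, and were fasted before exposure. The 12 Norm mice stayed in air with 20.9% oxygen, and the 12 Hypox mice breathed 12% oxygen for 6 h at normal pressure. By the sample descriptions each array held the Cy5-labelled RNA of 1 mouse beside a Cy3-labelled reference pool of all samples. The log2 ratios were loess-normalized within each array, so 0 is the array's own trend at that brightness and need not be the pool's level. The dye fields of 5 Hypox samples name other dyes, which would bear on the sign of their ratios, and the descriptions, which are alike for all 24 samples, were followed. The muscle was taken whole, and in such bulk RNA fewer cells of a type and less RNA per cell cannot be told apart. The model was of 1 sex, 1 diet and 1 exposure time.

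The arrays lay on 6 slides with 2 Norm and 2 Hypox arrays each. The mean Cy5 signal ranged from 58.3 to 933 units over the Norm arrays and from 63.5 to 1014 over the Hypox arrays, and the 4 arrays of slide 1 were dim (58.3 to 102). All 8 skeletal muscle markers, among them *Acta1* and *Ckm*, were measured, and none passed the unadjusted threshold between the groups. Over all genes 12.2% passed an unadjusted p of 0.05 in limma, 7.12% higher and 5.04% lower in Hypox, and 0.339% passed after adjustment.

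Myostatin is a secreted member of the TGF-β family that is made mostly by skeletal muscle and restrains its growth. It binds the activin type II receptors encoded by *Acvr2b* and *Acvr2a*, which with a type I receptor phosphorylate SMAD2 and SMAD3. Follistatin (*Fst*) and the follistatin-like protein of *Fstl3* trap the ligand outside the cell, and SMAD7 blocks the signal inside it. *Mss51* encodes a mitochondrial protein of skeletal muscle, found mainly in fast glycolytic fibers, whose transcript is known to be lower when myostatin is blocked and whose loss raises oxidative metabolism.

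The probe that measured *Mss51* is shown because a single probe carries its result. Its 60 bases map to chromosome 14, 21302415 to 21302782 on the minus strand of mm9, the build of the array design. The probe therefore covers 368 bases of the genome with 60 bases of transcript and reads across an intron. No annotation of mm9 was used here, so its exon numbers are not given.
Mss51 probe: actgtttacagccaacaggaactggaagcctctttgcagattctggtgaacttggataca

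The promoters of *Mss51* and *Mstn* are shown because SMAD proteins, the last step of the pathway, bind DNA. Both are the 250 bases before the gene's start in RefSeq (GRCm38.p6), at chr14:20496902-20497151 on the minus strand for *Mss51* and chr1:53061390-53061639 on the plus strand for *Mstn*. The 4 motifs searched on both strands were the palindromic SMAD element GTCTAGAC, the SMAD box CAGAC, the forkhead element GTAAACA and the E-box CANNTG, none of which contains another. Capitals mark GTCTAGAC in *Mss51* and CAGAC in *Mstn*.
Mss51 promoter: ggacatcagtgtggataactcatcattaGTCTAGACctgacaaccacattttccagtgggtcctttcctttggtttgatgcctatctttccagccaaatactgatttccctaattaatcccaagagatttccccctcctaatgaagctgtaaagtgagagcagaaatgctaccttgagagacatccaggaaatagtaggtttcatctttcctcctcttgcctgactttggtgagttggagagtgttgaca
Mstn promoter: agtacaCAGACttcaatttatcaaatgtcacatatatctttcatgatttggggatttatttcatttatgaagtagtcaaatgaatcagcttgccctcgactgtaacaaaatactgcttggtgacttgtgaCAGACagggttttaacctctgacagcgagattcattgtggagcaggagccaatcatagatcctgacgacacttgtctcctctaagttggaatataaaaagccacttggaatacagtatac

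GTCTAGAC stands once in the *Mss51* promoter, 222 bases before the start, and in 0.167% of the 32851 promoters of the same length. It was in none of the other 5 promoters found for the 9 genes (*Mstn*, *Acvr2a*, *Acvr2b*, *Fstl3* and *Smad3*), while *Fst*, *Smad2* and *Smad7* were not in the promoter table used here. CAGAC, which 42.2% of all promoters hold, was at 2 places in *Mstn* (120 and 244 bases before the start) and in *Fstl3*, at 1 place in *Acvr2a* and in *Acvr2b*, and at 0 in *Mss51* and *Smad3*. CANNTG, in 66.2% of promoters, was at 4 places in *Mstn* and 3 in *Fstl3*. GTAAACA (3.17% of promoters) was in none of the 6. These are matches of letters in the sequence, with no measurement of binding.

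*Mstn* itself differed between the groups by less than the spread of the mice. The log2 ratio ran from -0.15 over a median of 0.30 to 0.63 on the 12 Norm arrays and from -0.26 over a median of 0.31 to 0.77 on the 12 Hypox arrays. The groups overlapped over most of their range, with 6 Hypox arrays on each side of the Norm median. The Norm mean was 0.24 ± 0.25 and the Hypox mean 0.27 ± 0.39 (SD over 12 arrays each), so that they differed by 0.03 on the log2 scale with a standard error of 0.13. The Hypox arrays spread more widely, with 4 above the highest and 3 below the lowest Norm array. The difference was positive on 4 slides and negative on 2, from -0.66 on slide 5 to 0.50 on slide 6. The Cy5 signal of the probe was on average 12.0 times its local background and was well above background on 11 Norm and 12 Hypox arrays. The sign of this small difference turned with the Cy5 channel alone (-0.01).

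*Mss51* had the widest gap of the 9 genes, and it was lower in Hypox. On the Norm arrays the log2 ratio ran from -1.20 over a median of -0.01 to 0.75, and on the Hypox arrays from -1.67 over a median of -0.88 to -0.45. Every one of the 12 Hypox arrays lay below the Norm median, 9 of the 12 Norm arrays lay above the highest Hypox array, and 3 Hypox arrays lay below the lowest Norm array. The 3 Norm arrays inside the Hypox range were replicates 12 (-1.20), 11 (-0.68) and 8 (-0.58), which came from slides 6, 1 and 4.

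For *Mss51* the Norm mean was -0.02 ± 0.60 and the Hypox mean -0.94 ± 0.38 (SD over 12 arrays each). The log2 difference of -0.92 puts the Hypox level at 53.0% of Norm, or 1.89-fold lower. Its standard error was 0.20 from the SDs of the groups and 0.19 in limma. *Mss51* ranked 5 from the lowest of 9140 genes by this difference. The probe was bright, at 46.8 times its local background and well above background on all 24 arrays.

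**Figure D1:**
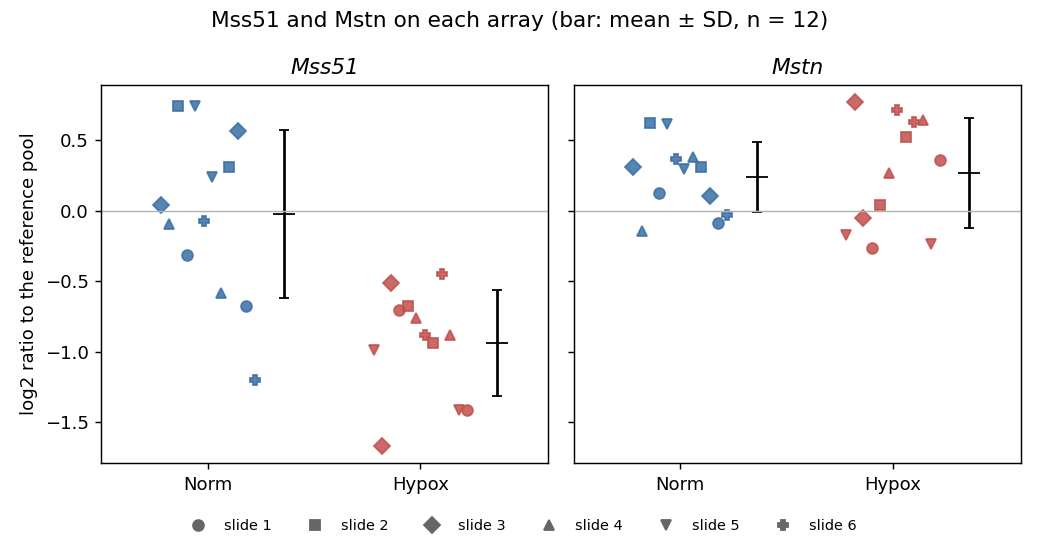
Log2 ratio to the reference pool (vertical axis) of Mss51 (left) and Mstn (right) on each of 12 Norm and 12 Hypox arrays, with the slide as the marker shape and the mean ± SD beside each group. For Mss51, 9 Norm arrays sit above the highest Hypox array (-0.45), while for Mstn the groups overlap around means of 0.24 and 0.27.

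The gap in *Mss51* was unevenly spread over the slides. It was negative on 6 of 6 slides, and it was -1.69 on slide 5, -1.39 on slide 3 and -1.33 on slide 2. It was smaller on slide 1 (-0.57) and slide 4 (-0.48) and close to 0 on slide 6 (-0.03), where the Norm mean was -0.64 and the Hypox mean -0.67. The Norm means of the slides thus ran from -0.64 to 0.53, and the Hypox means only from -1.20 to -0.67. Of the variance of *Mss51* over the 24 arrays, 47.9% lay between the groups, 10.2% between slides and 42.0% within both. Only 1.91% of all genes had a larger SD over the Norm arrays.

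The *Mss51* difference kept its sign in every setting tried, and ranged from -1.02 to -0.85 over the 24 fits that each left out 1 array. It was -0.89 with the processed signals of the scanner software and with the Cy5 channel alone, and -0.99 without the 4 arrays of slide 1. In the values the authors deposited it was -0.67, with a wider limma standard error of 0.37 beside 0.19 in the main setting. With each array centred on its median instead of loess it was -0.47, which is smaller than its limma standard error of 0.54. That setting moved the median of all genes to 0.25, so that *Mss51* stood 0.72 below it there. The other 6 genes that passed the filter had differences between -0.21 and 0.12.

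**Figure D2:**
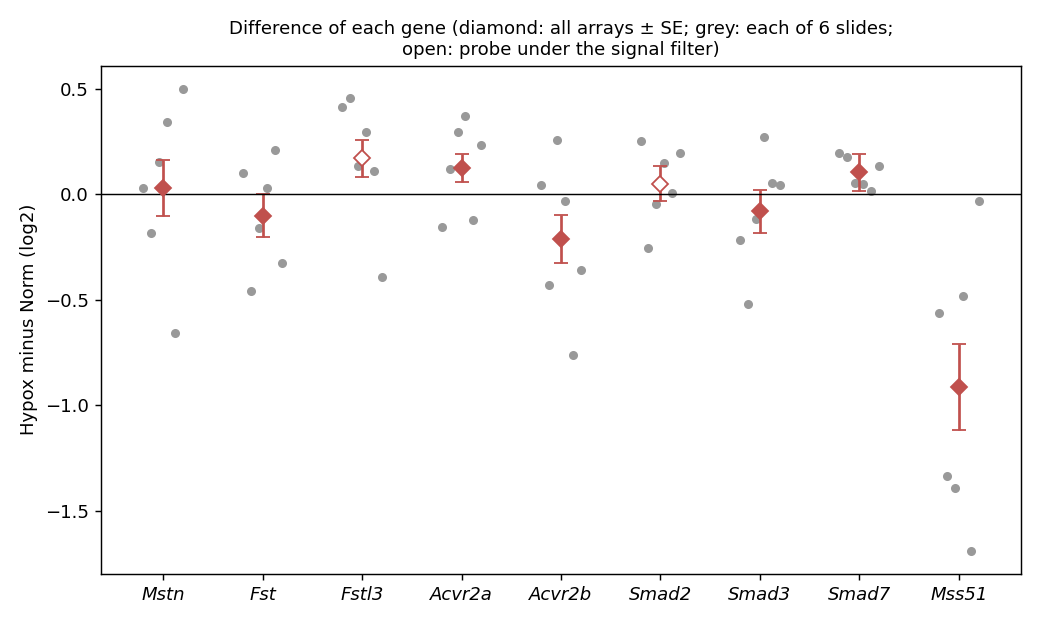
Hypox minus Norm difference (log2, vertical axis) of each of the 9 genes, with the diamond and bar for the difference over all arrays and its standard error, grey points for each slide and open diamonds for genes under the signal filter. Mss51 stands at -0.92, and the other 8 genes lie between -0.21 and 0.17.

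Of the ligand-binding proteins, *Fst* was faint and *Fstl3* fainter. *Fst* ran from -0.43 over a median of -0.19 to 0.47 in Norm and from -0.56 over a median of -0.15 to 0.07 in Hypox, with 3 Norm arrays above every Hypox array. Its means of -0.11 ± 0.27 and -0.21 ± 0.22 differed by -0.10 (standard error 0.10), negative on 3 slides and positive on 3. The sign turned with the Cy5 channel alone (0.02), the processed signals (0.03) and median centring (0.0048, or 0.25 below the median of all genes). Its probe was at 2.60 times background and well above it on 7 arrays of each group. *Fstl3*, at 1.69 times background, did not pass the filter, with 3 Norm and 4 Hypox arrays well above background. Its measured mean was -0.12 ± 0.14 in Norm and 0.05 ± 0.26 in Hypox, a difference of 0.17 (standard error 0.09) that was positive on 5 slides and had the opposite sign in the deposited values (-0.10). The 6 highest Hypox readings of *Fstl3* exceeded every Norm reading.

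The receptors of myostatin had small differences in opposite directions. *Acvr2b*, its main type II receptor, was bright enough to be read on all 24 arrays (12.7 times background). It ran from -0.57 over a median of 0.03 to 0.44 in Norm and from -0.63 over a median of -0.27 to 0.33 in Hypox. Of the 12 Hypox arrays, 10 lay below the Norm median, but the full ranges nearly coincided. The means were -0.01 ± 0.28 and -0.22 ± 0.29, a difference of -0.21 (standard error 0.11) that was negative on 4 of 6 slides, from -0.76 on slide 5 to 0.26 on slide 3. It was positive (0.08) with median centring, though below the median of all genes there, and -0.33 with the processed signals.

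*Acvr2a*, the other type II receptor, leaned the other way on a dim probe. Its ratio ran from -0.27 over a median of -0.03 to 0.21 in Norm and from -0.22 over a median of 0.07 to 0.43 in Hypox, with 9 Hypox arrays above the Norm median. The means of -0.06 ± 0.16 and 0.07 ± 0.17 differed by 0.12 (standard error 0.07), and 4 slides were positive. The probe was at 2.47 times background, and the difference was 0.45 with the processed signals and 0.02 in the deposited values. A second probe of *Acvr2a*, at 1.34 times background and not well above it on any array, gave a difference of 0.02 (standard error 0.07).

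The SMAD genes showed no separation of the groups. *Smad3*, a carrier of the signal to the nucleus, ran from -0.76 over a median of -0.25 to 0.52 in Norm and from -0.65 over a median of -0.27 to 0.02 in Hypox. Its means of -0.23 ± 0.30 and -0.31 ± 0.19 differed by -0.08 (standard error 0.10), with 3 slides on each side of 0. The sign turned with median centring (0.24) and in the deposited values (0.07), where it lay 0.010 and 0.015 below the median of all genes. The probe stood at 17.8 times background, and a second probe of *Smad3* at 1.42 times background gave 0.06. *Smad2*, the partner of SMAD3 in the same step, did not pass the filter (1.86 times background, well above it on 5 arrays of each group). Its measured means were -0.14 ± 0.18 in Norm and -0.10 ± 0.23 in Hypox, a difference of 0.05 (standard error 0.08), with 6 Hypox arrays on each side of the Norm median and the opposite sign in the deposited values (-0.22).

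*Smad7*, the inhibitory SMAD and itself a target of the pathway, had a small difference that was the same way on every slide. It ran from -0.30 over a median of -0.05 to 0.28 in Norm and from -0.21 over a median of 0.10 to 0.56 in Hypox, and the groups overlapped apart from 2 Hypox arrays above all of Norm. The means of -0.0046 ± 0.18 and 0.10 ± 0.24 differed by 0.10 (standard error 0.09), positive on 6 of 6 slides from 0.016 to 0.19. Of its variance 45.4% lay between slides and 6.08% between the groups. The probe was dim (2.39 times background, well above it on 7 arrays of each group), and the sign turned in the deposited values (-0.07).

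**Figure D3:**
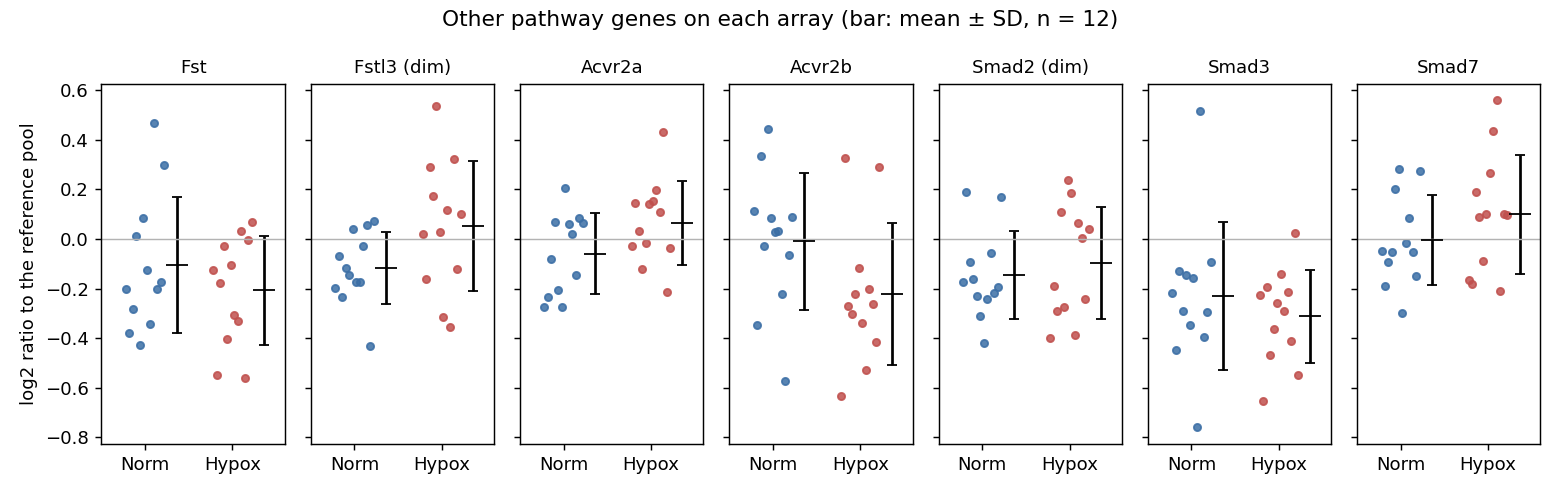
Log2 ratio to the reference pool (vertical axis) of Fst, Fstl3, Acvr2a, Acvr2b, Smad2, Smad3 and Smad7 on each array, with the mean ± SD of 12 Norm and 12 Hypox arrays beside the points and genes under the signal filter marked as dim. The groups overlap in each panel, and 10 of 12 Hypox arrays of Acvr2b lie below its Norm median of 0.03.

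Other genes of the TGF-β family pathway were read from 5 lists of 84 genes, of which 51 passed the filter and were tested across all genes with limma. Of these 51, 1 rose and 5 fell in Hypox at an unadjusted p of 0.05, which is 11.8% against 12.2% of all genes, and their median difference was 0.03 beside 0.03 over all genes. After adjustment over all genes, *Fkbp1a* passed. The share that moved was thus near the background of all genes.

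*Fkbp1a* encodes FKBP12, which holds type I receptors of this family inactive and also sits on the calcium release channel of muscle. Its probe was bright (273 times background), and its mean log2 ratio was 0.27 ± 0.29 over 12 Norm arrays and -0.26 ± 0.31 over 12 Hypox arrays (SD). The fall of 0.53 (standard error 0.12, adjusted p = 0.0422 in limma) was present on 6 of 6 slides. The adjusted p was between 0.0079 and 0.0887 when 1 array was left out and under the threshold in 6 of those 24 fits, while the unadjusted p held in all 24. The call was also lost with the Cy5 channel alone (adjusted p = 0.137), the mean of the gene's probes (-0.24, adjusted p = 0.136), no filter (adjusted p = 0.0843), the methods' t-test (adjusted p = 0.0699), the slow fiber covariate (adjusted p = 0.147), the deposited values (-0.099, unadjusted p = 0.772) and median centring (0.059, or 0.19 below the median of all genes, unadjusted p = 0.916).

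The receptor list had 3 of its 11 tested genes lower in Hypox by the unadjusted threshold and 0 higher. Over all genes 5.04% were lower and 7.12% higher by that threshold. The median of the receptor list was -0.03, and this short list was not tested as a set. *Acvr1*, a type I receptor for activins and BMPs, fell by 0.28 (standard error 0.07, p = 0.000532, adjusted p = 0.0853 in limma) on 6 of 6 slides. Its value was 0.018 with median centring (0.23 below the median of all genes there) and -0.17 (p = 0.28) in the deposited values. With the mean of the gene's probes it was -0.18 (p = 0.0132, adjusted p = 0.242 in limma). *Tdgf1*, which encodes the co-receptor Cripto, fell by 0.30 (p = 0.0169) on 6 of 6 slides, and lost the threshold with the processed signals (-0.45, p = 0.0505), median centring (-0.013) and the slow fiber covariate (-0.25, p = 0.0631). *Bmpr2*, the type II receptor of BMPs, fell by 0.28 (p = 0.0318) on 4 slides and lost the threshold in 7 of the 24 fits without 1 array, with median centring (-0.020), with the slow fiber covariate (-0.24) and in the deposited values (-0.23). *Acvr1b* and *Tgfbr1*, the type I receptors that myostatin uses, had differences of 0.13 (standard error 0.09) and 0.07 (standard error 0.09) and did not pass.

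Among 11 tested proteins that bind or activate such ligands, *Dcn* (decorin, a matrix proteoglycan that can hold myostatin) passed, with a fall of 0.37 (standard error 0.16, p = 0.0252, adjusted p = 0.323 in limma) on 6 of 6 slides. Its difference was positive with median centring (0.19) and in the deposited values (0.053), though below the median of all genes in both. With the Cy5 channel alone it was -0.18 (p = 0.122), and p was 0.0530 without Norm replicate 4 and 0.0572 without Norm replicate 11. *Furin* (0.18, standard error 0.14) and *Bmp1* (-0.12, standard error 0.09), which encode proteases that cut the myostatin precursor, did not pass. Of 16 other ligands 4 could be tested and 0 passed, with differences from 0.0067 for *Tgfb3* to 0.14 for *Bmp6*. *Gdf11*, the ligand nearest to myostatin, did not pass the filter. Among 13 tested SMADs and partners, *Smad4*, the common partner of SMAD2 and SMAD3, had a difference of -0.02 (standard error 0.14), and *Fkbp1a* was the only one that passed.

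The 12 tested genes known to respond to the pathway all had positive differences, with a median of 0.13, where 5375 of 9140 genes overall were positive. The number of positive genes stayed at 12 with each scaling except the Cy5 channel alone, where it was 10, and 9 to 12 of them lay above the median of all genes. Only *Myog*, a transcription factor of muscle differentiation, passed the unadjusted threshold (0.23, standard error 0.06, p = 0.000682, adjusted p = 0.0889 in limma), on 6 of 6 slides and on a dim probe at 2.10 times background. The difference of *Myog* was 0.66 with the processed signals and 0.38 at offset 10, and it lost the threshold in the deposited values (0.12, p = 0.294) and with median centring (0.26, p = 0.0752, or 0.012 above the median of all genes). *Trim63* (0.32, standard error 0.19) and *Fbxo32* (0.13, standard error 0.11), the muscle ubiquitin ligases MuRF1 and atrogin-1, did not pass, and neither did *Cdkn1a* (0.17, standard error 0.09), whose product p21 stops the cell cycle.

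**Figure D4:**
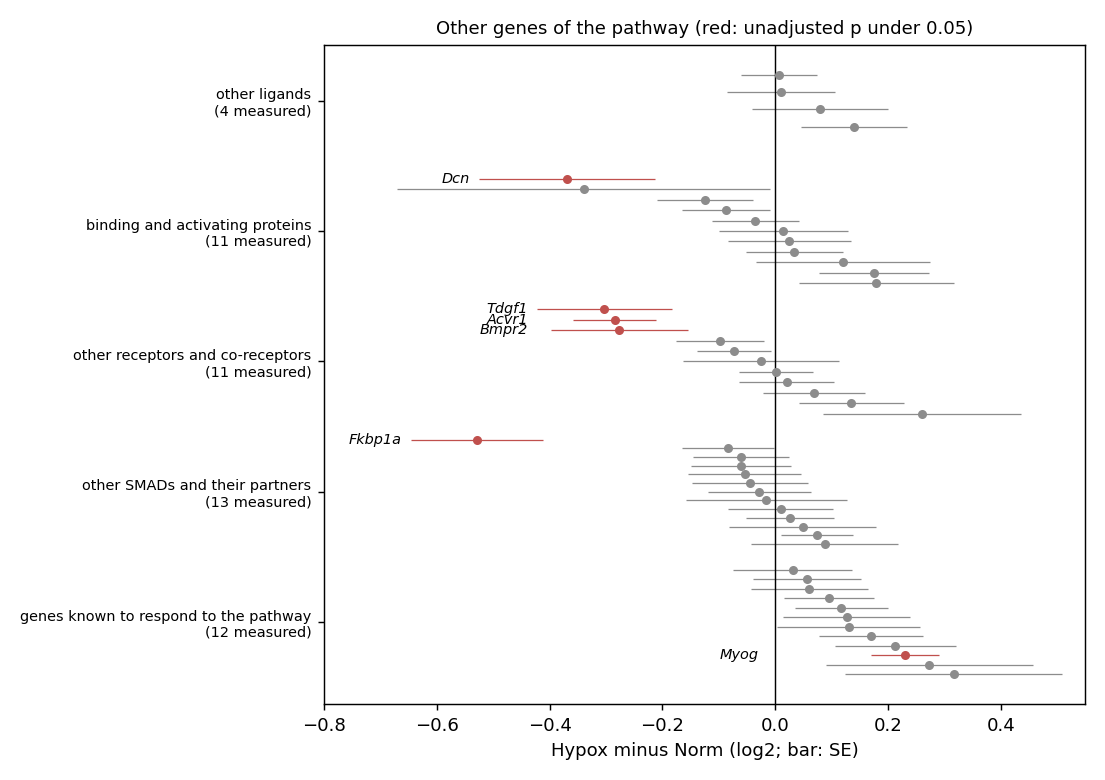
Hypox minus Norm difference (log2, horizontal axis) with its standard error for 51 other genes of the pathway in 5 lists, in red where the unadjusted limma p was under 0.05. Fkbp1a stands apart at -0.53, and all 12 response genes lie to the right of 0.

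Some marker genes of fiber types and of other cells also differed between the groups, where 12.2% of all genes passed the unadjusted threshold. All 9 slow fiber genes were measured and had positive differences (median 0.34), and *Tnni1* (0.61), *Tnnc1* (0.44) and *Casq2* (0.27) passed the unadjusted threshold. The mean of the slow fiber list ran from -1.90 to 0.44 over the Norm arrays and from -0.21 to 0.19 over the Hypox arrays. Norm replicate 5 stood apart at -1.90, with the next lowest Norm array, replicate 3, at -0.73. Of 10 fast glycolytic fiber genes, *Mylpf* (0.36) passed, and the list's median of -0.24 was positive with the processed signals (0.10), the Cy5 channel alone (0.03), median centring (0.52) and the deposited values (0.34). Among the peripheral nerve genes *Prx* (-0.28) and *Pmp22* (-0.41) fell, while *Sox10* (-0.022) and *Mbp* (-0.0011) did not pass. *Prx* and *Pmp22* kept a negative difference with each scaling, the smallest being -0.031 and -0.068 with median centring. In that setting 4 of 6 nerve genes had positive values, and 0 lay above the median of all genes. Of 5 adipocyte genes *Cfd* (-0.56) and *Adipoq* (-0.33) fell. With median centring 2 of these 5 had positive values, and 1 lay above the median of all genes. Of 4 tested endothelial genes *Cldn5* (0.30) and *Cdh5* (0.38) rose, while *Kdr* (-0.15) and *Tie1* (-0.0043) did not pass. The part of nerve, fat and vessel RNA in the differences above was not tested.

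Over the 24 arrays, after the group means were removed, *Mss51* was low where the slow fiber list was high. Pearson's r was -0.68 (permutation p = 0.00106, adjusted p = 0.0233 over the 22 relations of *Mss51* and *Mstn* with 11 marker lists) and Spearman's rho was -0.65 (p = 0.00223, adjusted p = 0.0491). Without the 2 arrays farthest on the list, Norm replicates 5 and 12, r was -0.59, and without the 2 farthest on *Mss51* it was -0.66. With the slide means removed as well it was -0.68. The adjusted p rose to 0.0921 without Norm replicate 11, to 0.0517 without Norm replicate 12 and to 0.225 without slide 1. Against the fast glycolytic fiber list *Mss51* had r = -0.13 (permutation p = 0.574, adjusted p = 0.694), with -0.28 within Norm and 0.18 within Hypox. That relation was 0.22 with the slide means removed as well.

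The relation with the slow fiber list was seen among the Norm arrays. The tests of it within each group were not planned beforehand and are not adjusted. Over the 12 Norm arrays r was -0.83 (permutation p = 0.00054), and it was -0.91 without Norm replicates 5 and 12 (n = 10). Norm replicates 3 and 5, which had the highest *Mss51* (0.75 and 0.74), had slow fiber means of -0.73 and -1.90, and Norm replicate 12, with the lowest *Mss51* of the group, had the highest (0.44). Among the 12 Hypox arrays, whose slow fiber means covered a narrow range, r was 0.06 (permutation p = 0.841), and the difference between these groups was not tested. The relation depended on the scaling, since r over all arrays was -0.51 with the processed signals and -0.59 with the Cy5 channel alone, and had the opposite sign with median centring (0.82) and in the deposited values (0.54). With the slow fiber mean as a covariate, the *Mss51* difference between the groups was -0.65 (limma standard error 0.15) in place of -0.92 (0.19). This fit took a common slope for both groups, although r was -0.83 in Norm and 0.06 in Hypox. The slow fiber mean also differed between the groups (-0.37 in Norm and -0.03 in Hypox). How much of the *Mss51* difference goes with fiber type was not tested.

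**Figure D5:**
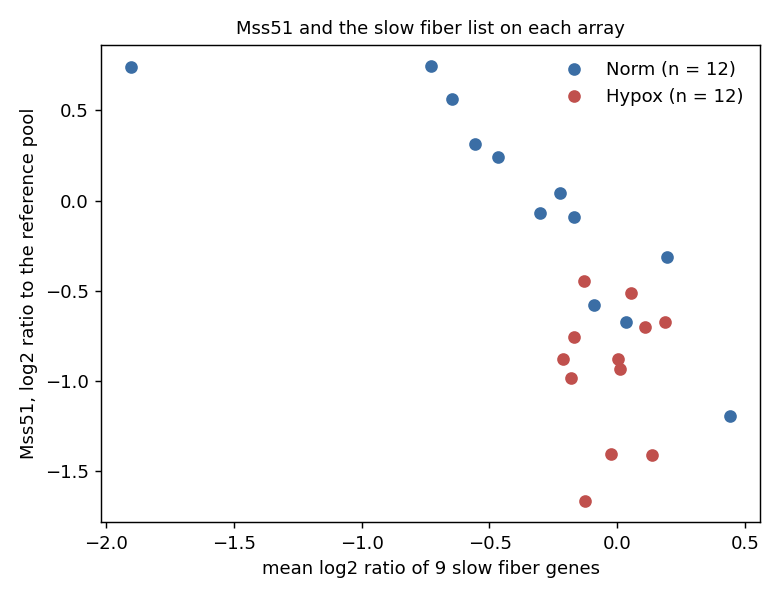
Mss51 (vertical axis, log2 ratio to the reference pool) against the mean log2 ratio of 9 slow fiber genes (horizontal axis) for each Norm and Hypox array. The Norm points run down from upper left to lower right (r = -0.83, n = 12), and the Hypox points form a cluster between -0.21 and 0.19 on the horizontal axis.

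The correlation of *Mstn* with *Mss51* across mice did not pass the test. With the group means removed, r was 0.22 (permutation p = 0.256, adjusted p = 0.564 over 11 relations among the genes) and rho was 0.16 (p = 0.443). It was 0.22 without the 2 arrays farthest on *Mstn* and 0.33 without the 2 farthest on *Mss51*, and 0.19 with the slide means removed. Within Norm r was 0.63 and within Hypox -0.15 (n = 12 each). With median centring (0.90) and in the deposited values (0.78) the pair was closely correlated. In both settings most relations of these genes with the marker lists passed as well, so the close correlation was not particular to this pair.

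Of the other relations, *Mstn* with *Acvr2b*, its receptor, was the closest (r = 0.51, permutation p = 0.0122, rho = 0.51, p = 0.0135). It failed the correction for 11 relations (adjusted p = 0.134), and r was 0.68 in Norm and 0.42 in Hypox. *Mstn* against the slow fiber list had r = -0.43 (permutation p = 0.00393, adjusted p = 0.0432) and rho = -0.39 (p = 0.0372, adjusted p = 0.273). This relation lost the adjusted threshold in 14 of the 24 sets without 1 array, and its sign turned with median centring (0.89) and in the deposited values (0.63). Correlations of *Mss51* and *Mstn* with the brightness of the array were 0.16 (permutation p = 0.48) and 0.37 (permutation p = 0.0744).

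The genes whose array-to-array pattern was most like *Mss51* were sought among 9057 genes with values on all 24 arrays, after slide and group means were removed. *Topors* (r = 0.79), *Cox4i2* (0.78), *Trem1* (0.78), *2310065F04Rik* (0.75) and *Gm1976* (0.75) came closest, and none of these 5 passed the unadjusted threshold between the groups. *Cox4i2* encodes an isoform of a cytochrome c oxidase subunit. The most opposite were *Acot7* (-0.76), *St3gal3* (-0.74) and *Tnni1* (-0.74), the slow troponin I. For *Mstn* the closest were *Skil* (0.81), *Hspa13* (0.81), *Esco1* (0.79), *Ubr2* (0.79) and *Bbx* (0.77), and the most opposite were *Srsf11* (-0.87), *Apoe* (-0.86) and *Actn2* (-0.85). *Skil*, which encodes the SMAD corepressor SnoN, had a group difference of 0.03 (standard error 0.08). These are the extremes of many correlations over 24 arrays that share 6 slides, and they are given as a description.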

How the data were processed

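The deposited scanner files of 24 arrays (Agilent Feature Extraction, version 10.7.3.1 per the labels) hold the intensity of each spot and its local background, which the authors deposited without normalization between arrays. The authors also deposited log2 values normalized per array in GeneMaths XT, whose scaling and use of Cy3 stay unknown (median 6.58 in each column). Groups came from the sample titles and slides from the scanner files.

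Control spots and 7260 flagged readings were left out, and 0 spots were saturated. Background was removed by normexp with an offset of 50. The log2 Cy5 to Cy3 ratio of each spot was loess-normalized within its array, and a probe's spots were averaged. Probes were matched to genes by RefSeq accession (27318), symbol (3527) or synonym (553), and 24283 had no gene. A probe was kept above 2 times background with at most 4 arrays missing, and the brightest probe stood for its gene. R 4.3.3 and limma 3.58.1 compared Hypox with Norm over 9140 genes without a block, with Benjamini-Hochberg adjustment, and were tested on simulated data. Correlations used 100000 permutations. The number of arrays and the share of spots well above background (9.42% to 37.8%) limit the precision.

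The genes and lists were chosen with earlier results of these data known. Named were the 9 genes, up to 3 genes of each pathway list and direction with the smallest unadjusted p under 0.05, and the 5 most like and 3 most unlike *Mss51* and *Mstn*; genes without a call and marker genes were named for their role. Replicate numbers did not pair the mice. A peripheral nerve marker is not reported here. Alternatives were other scalings, background offsets, filters and blocks, the methods' t-test, and fits without 1 array. Leaving out slide 1 and the slow fiber covariate were chosen after seeing the data.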

Additional observations from a re-analysis of the deposited data

How the results depend on the processing

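The *Mss51* difference stayed between -1.02 and -0.47 in all settings run. Its limma standard error was 0.19 in the main setting, but 0.37 in the deposited values and 0.54 with median centring. The *Mstn* difference lay between -0.02 and 0.08 without 1 array, and was 0.29 with median centring, where the median of all genes was 0.25. The count of genes at an unadjusted p of 0.05 was 1112 (651 higher), and 32 (all higher) with median centring, 732 with Cy5 alone, 489 in the deposited values, 1936 with no filter on dim probes, and 977 to 1292 without 1 array. After adjustment 31 passed, and 66 with the processed signals or a slide block, 13 with Cy5 alone, 9 by the methods' t-test (1106 unadjusted), 8 with no filter, 1 in the deposited values, 0 with median centring, and 6 to 54 without 1 array. The pathway count of 6 was 0 with median centring, 2 in the deposited values and 5 to 9 without 1 array. With median centring *Dcn* (0.19), *Fkbp1a* (0.059) and *Acvr1* (0.018) changed sign, as did *Dcn* (0.053) in the deposited values. Each of these values lay below the median of all genes in its setting.

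The *Mstn* to *Mss51* correlation was 0.90 with median centring, 0.78 in the deposited values and 0.15 to 0.37 without 1 array. *Mss51* against the slow fiber list gave -0.51 with the processed signals, -0.59 with Cy5 alone, -0.66 without slide 1, 0.82 with median centring, 0.54 in the deposited values, and -0.73 to -0.59 without 1 array. *Mstn* against that list gave -0.60 with slide means removed, -0.39 with the processed signals, -0.33 with Cy5 alone, -0.35 at offset 10, -0.41 with the mean of a gene's probes, -0.40 without slide 1, 0.89 with median centring, 0.63 in the deposited values, and -0.47 to -0.38 without 1 array. Of 22 marker relations 2 passed, and 1 with slide means removed, the processed signals, offset 10 or the mean of probes, 0 with Cy5 alone or without slide 1, 20 with median centring, 17 in the deposited values and 0 to 2 without 1 array. The causes were not tested.

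The replicate numbers did not pair the samples, since same-numbered arrays correlated at -0.21 to 0.50, with 3 of 12 pairs over 0.1 and 2 of 12 Norm arrays closest to their own number. With the replicate block 1191 genes passed unadjusted, 22 adjusted and 6 of the pathway lists, and the *Mss51* difference was -0.92 and that of *Mstn* 0.03. Dim probes (*Fst*, *Acvr2a*, *Smad7*, *Fstl3*, *Smad2*) limit those genes, and *Fst*, *Acvr2a* and *Smad7* had no value with the filter at 3 times background.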

Other observations

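Of the other cell type lists, 0 of 6 fibroblast, 0 of 2 macrophage, 0 of 2 red blood cell and 0 of 1 satellite cell genes tested passed the unadjusted threshold in limma. The lung marker *Sftpc* had a difference of 0.81 (standard error 0.31, p = 0.0152) and a list range of -2.04 to -0.16 over the Norm and -1.40 to 2.57 over the Hypox arrays, while the other 5 lung markers did not pass the signal filter. *Mss51* against the red blood cell list had r = -0.48 (permutation p = 0.0317, adjusted p = 0.174 over 22 relations), with -0.48 within Norm and -0.48 within Hypox.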
